A study of Rattus norvegicus with 12 samples.

Results

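The adenylyl cyclases are the enzymes that make cyclic AMP (cAMP) from ATP. All 9 genes of the membrane-bound family (*Adcy1* to *Adcy9*) were found by name among the 37209 genes counted in punches of the central nucleus of the amygdala (CeA), and all 9 were expressed highly enough to be tested. The punches came from 12 male wild type Sprague Dawley rats, 14 to 16 weeks old. The 6 rats of the CIE group (rats 1 to 6) had breathed chronic intermittent ethanol vapor for weeks and were killed as the final vapor period ended. The 6 rats of the Control group (rats 7 to 12) had breathed air and were killed after the last air exposure. Each library is 1 rat and 1 hemisphere. CIE rats 2 and 4 and Control rat 10 stood apart from the other 9 rats by high striatal markers, and the main results that rest on them are given with and without them.

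Membrane-bound cyclases are switched on by the stimulatory G proteins Gs and Golf and, for some isoforms, held back by Gi. The cAMP they release activates protein kinase A (PKA) and the exchange factors known as Epac, and through PKA the transcription factor CREB. The isoforms differ in what else they sense. ADCY1, ADCY3 and ADCY8 respond to calcium and calmodulin, ADCY2, ADCY4 and ADCY7 are stimulated by G protein beta-gamma subunits together with Gs, ADCY5 and ADCY6 are inhibited by calcium and by Gi, and ADCY9 is insensitive to the plant compound forskolin that activates the others. In the amygdala, the receptors for corticotropin releasing factor and for several other stress transmitters act through this pathway, ADCY5 is the main cyclase of striatal neurons, and ADCY7 is known as the isoform whose activity ethanol enhances most. Here only mRNA was measured, not cyclase activity or cAMP.

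The comparison of the CIE and Control groups asked whether any cyclase gene differs in expression at the end of the final vapor period. The CIE rats were then still intoxicated, so intoxication and dependence cannot be told apart here. No difference passed the test in any of the 9. In edgeR's quasi-likelihood F test, 0 of the 9 cyclases had a nominal *p* value below 0.05, where 8.31% of the 20944 genes tested did (1740 genes, 837 higher and 903 lower in CIE rats). At 5% false discovery rate (FDR) the count was 0 of 9 against 0.363% of all genes. With DESeq2, 0 of the 9 passed either threshold, and with limma-voom and sample quality weights 2 had a nominal *p* value below 0.05 (17.2% of all genes did) and 0 passed 5% FDR. The 2 groups overlapped in each of the 9 genes, and 0.893% of all genes tested showed no overlap. The smallest FDR among the cyclases was 0.798, that of *Adcy9*. The log2 fold changes, CIE against Control, ran from -0.26 in *Adcy7* to 0.32 in *Adcy9*, with a median of 0.007 where the median of all genes tested was 0.00096.

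The range of differences that the data allow was much wider for some isoforms than for others. *Adcy3* was the most tightly bounded, with a 95% confidence interval of the CIE to Control ratio from 0.907 to 1.11. *Adcy5* was the least bounded, and its interval ran from a ratio of 0.614 to one of 2.06. *Adcy1* (0.820 to 1.84) and *Adcy9* (0.866 to 1.796) were also loosely bounded, so the result does not show that the groups are alike in these genes. *Adcy5* had at least 6499 counts in every rat, and the plot of expression by rat shows rats of the same group far apart. *Adcy4* (0.809 to 1.59) was also loosely bounded, with 83 to 368 counts per rat. The sources of the wide intervals were not tested.

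**Figure D1:**
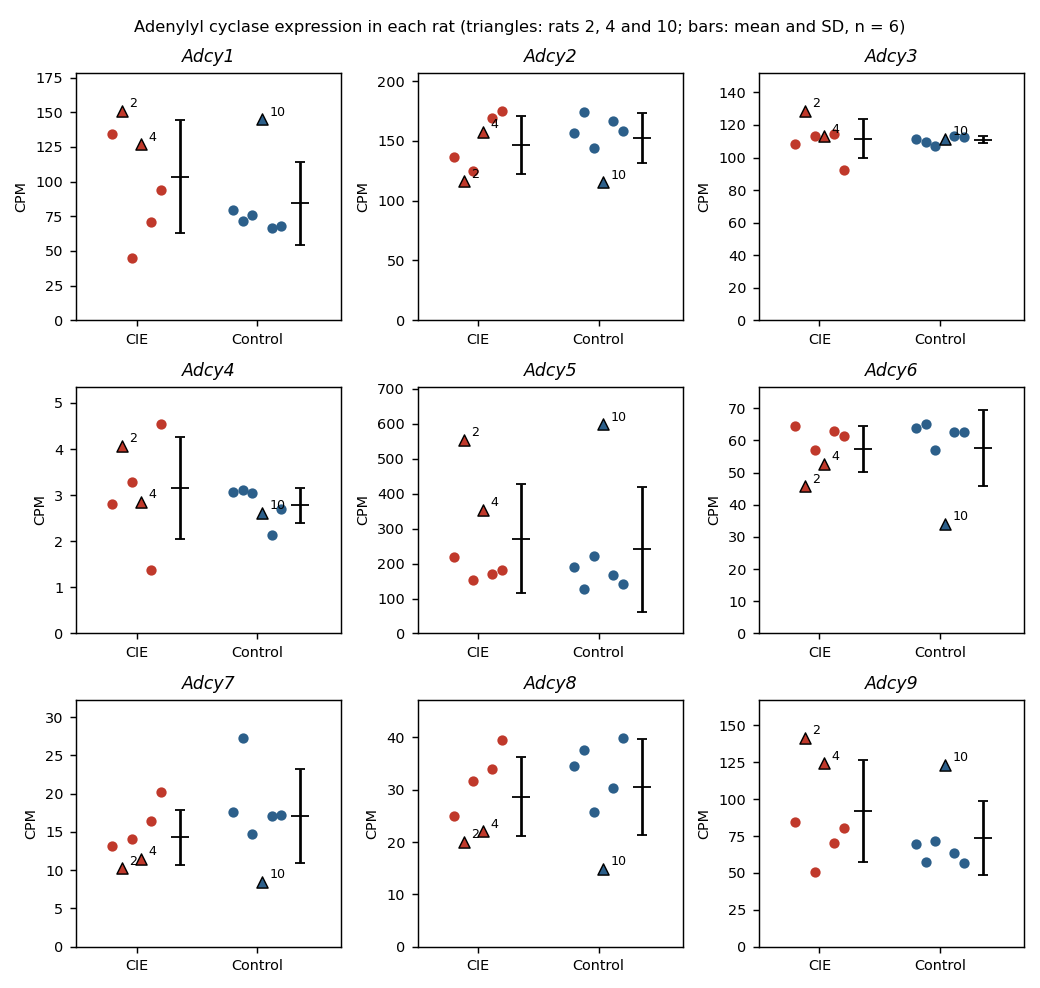
Expression of the 9 adenylyl cyclase genes in counts per 1000000 (CPM, vertical axes from 0) in each CIE rat (red) and Control rat (blue); the bars give the mean and SD of 6 rats. Triangles mark CIE rats 2 and 4 and Control rat 10, which are the highest rats of *Adcy5* and *Adcy9* and the lowest of *Adcy6*, *Adcy7* and *Adcy8*.

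*Adcy5* carried the widest spread of the family. Its expression in counts per 1000000 counts of the library (CPM, scaled by edgeR's TMM factors) was lowest at 152, with a median of 199 and a highest value of 554 in the CIE group. In the Control group it was lowest at 126, with a median of 178 and a highest value of 599. CIE rats 2 (554 CPM) and 4 (353 CPM) and Control rat 10 (599 CPM) stood above the other 9 rats, whose values lay between 126 and 223 CPM. The group means of 271 ± 156 CPM (SD, n = 6) and 241 ± 178 CPM (SD, n = 6) differed by less than the SD of either group (log2 fold change 0.17, SE 0.41, nominal *p* 0.683, FDR 0.945, exact permutation *p* = 0.619).

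*Adcy6*, the close relative of *Adcy5* that shares its inhibition by calcium, ran the other way across the 12 rats (Pearson's r of log2 CPM -0.886, as a description), but only weakly so over the 9 rats other than CIE rats 2 and 4 and Control rat 10 (r = -0.228). In the CIE group it was lowest at 45.7 CPM, with a median of 59.1 and a highest value of 64.5 CPM. In the Control group the lowest value was 34.1 CPM, the median 62.5 and the highest 65.0 CPM. Its 3 lowest rats, Control rat 10 and CIE rats 2 and 4, are those in which *Adcy5* was highest. The group difference was the smallest of the family in size (log2 fold change -0.005, SE 0.14, FDR 0.996), its sign turned under other normalizations, and its interval allowed a CIE to Control ratio between 0.811 and 1.23.

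Among the calcium and calmodulin stimulated cyclases, *Adcy1*, the neuronal isoform linked to synaptic plasticity, ranged from 44.7 to 151 CPM among CIE rats (median 110), while Control rats ran from 66.8 to 145 CPM (median 73.5). CIE rats 1, 2 and 4 and Control rat 10 were its 4 highest rats, and CIE rat 3 was the lowest of all. The difference was 0.30 on the log2 scale (SE 0.27, FDR 0.830, exact permutation *p* = 0.442). *Adcy8*, the other isoform most strongly driven by calcium, ranged from 20.04 to 39.6 CPM under CIE (median 28.3), and the Control rats from 14.9 to 40.0 CPM (median 32.4), with a log2 fold change of -0.09 (SE 0.22, FDR 0.946). Control rat 10 and CIE rats 2 and 4 were the 3 lowest rats of *Adcy8*.

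*Adcy3*, known as the cyclase of olfactory neurons and of neuronal primary cilia, was the most even gene of the family. It ranged from 107 to 113 CPM in the 6 Control rats (median 112) and from 92.0 to 129 CPM in the 6 CIE rats (median 113), with CIE rat 6 lowest and CIE rat 2 highest. Its coefficient of variation was 1.95% in the Control group and 10.6% in the CIE group. The group means were 112 ± 11.8 CPM and 111 ± 2.17 CPM (SD, n = 6 each; log2 fold change 0.007, SE 0.07, FDR 0.986). Its SD of log2 CPM within groups was at percentile 14.0 of the tested genes, where that of *Adcy5* was at percentile 91.8.

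The cyclases stimulated by G protein beta-gamma subunits included *Adcy7*, the isoform of interest for ethanol. It was expressed at a median of 13.7 CPM in CIE rats (10.2 to 20.2 CPM) and of 17.2 CPM in Control rats (8.46 to 27.3 CPM). Of the 6 CIE rats, 1 was above the Control median. Both the highest rat (Control rat 8) and the lowest (Control rat 10) belonged to the Control group, and the difference of -0.26 on the log2 scale (SE 0.23, nominal *p* 0.276, FDR 0.825, exact permutation *p* = 0.448) was within the spread. Its interval reached from a CIE to Control ratio of 0.596 to one of 1.17. With a single rat left out, the log2 fold change ran from -0.39 without Control rat 10 (nominal *p* 0.058 in edgeR) to -0.06 without Control rat 8. It kept its sign under all 21 alternative settings.

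*Adcy2*, a neuronal isoform, averaged 147 ± 24.3 CPM over CIE rats (116 to 175 CPM) and 153 ± 20.9 CPM over Control rats (115 to 174 CPM, SD, n = 6 each), a log2 fold change of -0.06 (SE 0.12, FDR 0.934). *Adcy4*, which is known from vascular cells, was the scarcest of the 9 by counts, with 83 to 368 counts per rat. It averaged 3.16 ± 1.11 CPM over CIE rats and 2.78 ± 0.373 CPM over Control rats (SD, n = 6 each; log2 fold change 0.18, SE 0.23, FDR 0.886). CIE rat 5 (1.38 CPM) and CIE rat 6 (4.54 CPM) were its lowest and highest rats, so that the CIE group enclosed the Control group.

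*Adcy9* had the highest log2 fold change of the family at 0.32 (SE 0.25, nominal *p* 0.215, FDR 0.798, exact permutation *p* = 0.312). CIE rats ranged from 50.5 to 142 CPM (median 82.6), Control rats from 56.9 to 123 CPM (median 66.4). Of the 6 CIE rats, 5 were above the Control median. CIE rats 2 and 4 and Control rat 10 were again its 3 highest rats, all at 123 CPM or more, with the other 9 rats at 84.9 CPM or less.

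Summed over the 9 genes, the cyclases came to between 591 and 1172 CPM in CIE rats, against 661 to 1154 CPM in Control rats. *Adcy5* gave 47.3% of this sum in CIE rat 2 and 51.9% in Control rat 10, and 18.7% in Control rat 8, where it gave least. Transcript lengths were not used here, so these are shares of reads and the genes are not ranked by their levels.

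The same 3 rats stood apart by their striatal neuron markers, which a CeA punch can pick up from the neighboring caudate putamen. The part of tissue from outside the CeA in the cyclase values was not tested. The 8 markers of striatal projection neurons (among them *Drd1*, *Drd2*, *Adora2a*, *Pde10a* and *Gpr6*) summed to 2368 CPM in CIE rat 2, 1147 CPM in CIE rat 4 and 2560 CPM in Control rat 10, and to between 243 and 628 CPM in the other rats. Single markers differed in this, as *Adora2a* ranged from 9.81 to 400 CPM over the 12 rats and *Rxrg*, also on the list, only from 31.5 to 46.3 CPM. None of the 8 was at 0 in any rat. As a score, the mean over the markers of log2 CPM in units of each marker's SD, they ranged from -0.55 to 1.38 in the CIE group and from -1.17 to 1.46 in the Control group, and the group means did not pass a two-sided exact permutation test (*p* = 0.511). The 8 markers of cortical glutamatergic neurons, another neighbor, summed to between 179 and 616 CPM in CIE rats, against 166 to 304 CPM in Control rats (exact permutation *p* of the score 0.173). CIE rat 1 was highest by that sum (616 CPM), followed by CIE rat 4 (437 CPM), CIE rat 2 (436 CPM) and Control rat 10 (304 CPM). The next rat, Control rat 12, was at 253 CPM, so the 3 rats with high striatal markers were also high in cortical markers. Listed markers of the CeA were present in all rats, with *Prkcd* between 22.7 and 46.3 CPM and *Sst* between 105 and 261 CPM. Other members ranged more widely, *Penk* from 267 to 1658 CPM and *Ppp1r1b* from 51.4 to 1454 CPM. Of 10 markers listed, 9 were in the counts and none was at 0 in any rat. These 9 summed to 3558 CPM in Control rat 10, 2995 CPM in CIE rat 2 and 2109 CPM in CIE rat 4. The other rats lay between 738 and 1662 CPM, so this list does not separate the CeA from the striatum. CIE rat 6 stood apart by the lowest CeA score (-1.43, the next lowest rat at -0.56), the lowest general neuron score (-1.42) and the highest astrocyte (1.44), microglia (1.11) and OPC (1.38) scores. It was the lowest rat of *Adcy3* and the highest CIE rat of *Adcy2*, *Adcy4*, *Adcy7* and *Adcy8*. Without it, 0 of the 9 cyclases had a nominal *p* value below 0.05 (9.26% of all genes did). The log2 fold change was then 0.058 in *Adcy3*, -0.11 in *Adcy2*, 0.047 in *Adcy4*, -0.38 in *Adcy7* and -0.20 in *Adcy8*. In bulk tissue, fewer cells of a type and less RNA per cell cannot be told apart.

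**Figure D2:**
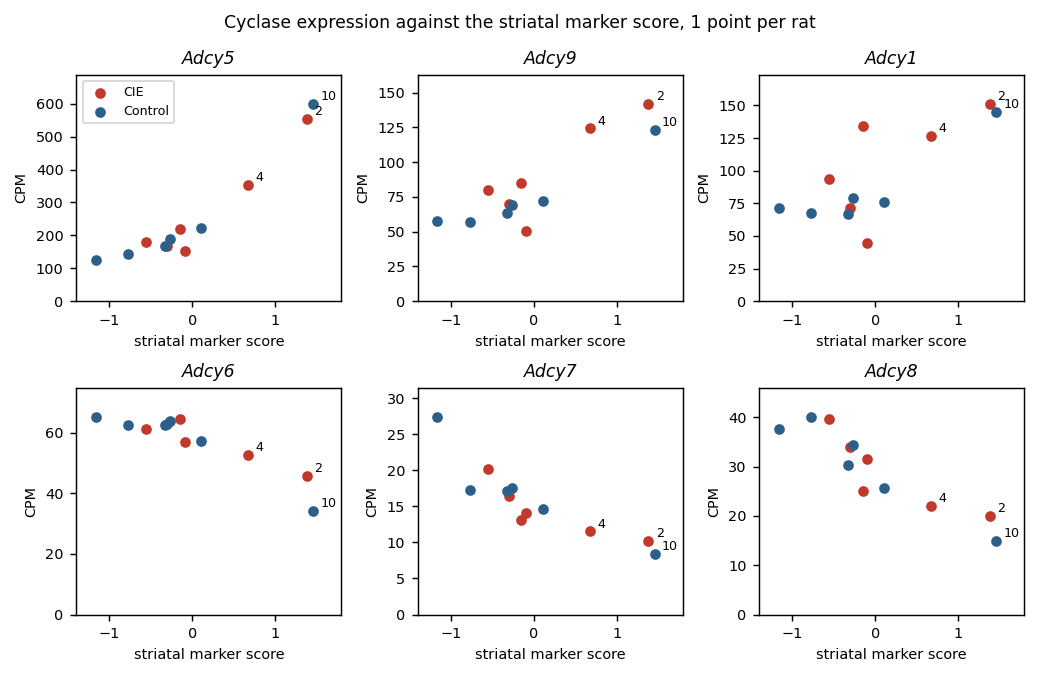
Expression of 6 cyclases in CPM (vertical axes from 0) against the striatal marker score (horizontal axes, mean of the markers in SD units), with 1 point per CIE rat (red) or Control rat (blue). CIE rats 2 and 4 and Control rat 10, numbered, lie at the right with high *Adcy5*, *Adcy9* and *Adcy1* and low *Adcy6*, *Adcy7* and *Adcy8*. Over the other 9 rats *Adcy5* also rises and *Adcy7* and *Adcy8* also fall, but in the edgeR fit of these rats none passes 5% FDR.

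With the striatal and cortical scores and the group in 1 edgeR fit, the striatal term, tested over all 20944 genes after the values had been seen, passed 5% FDR in 5 of the 9 cyclases, where 6.33% of all genes passed. Of all genes, 4.15% rose and 2.18% fell with the score at this threshold, and of the cyclases 2 rose and 3 fell. *Adcy5* and *Adcy9* rose with the score and *Adcy6*, *Adcy7* and *Adcy8* fell. *Adcy5* rose by 0.81 on the log2 scale per unit of the score (SE 0.06, FDR 2.91e-06) and *Adcy9* by 0.39 (SE 0.08, FDR 0.00987). *Adcy7* fell by 0.51 per unit (SE 0.07, FDR 0.000878), *Adcy8* fell by 0.49 (SE 0.07, FDR 0.000655) and *Adcy6* fell by 0.31 (SE 0.06, FDR 0.00381). *Adcy1* (0.23, FDR 0.219), *Adcy2* (-0.21, FDR 0.0660), *Adcy3* (0.06, FDR 0.546) and *Adcy4* (-0.03, FDR 0.954) did not pass. For *Adcy1* the cortical term was the larger (0.51 per unit, SE 0.12), with a nominal *p* of 0.00105 and an FDR of 0.243, and 0 of the 9 cyclases passed 5% FDR for that term (30 of all genes, 0.143%, did). Without Control rat 12 the cortical term of *Adcy1* did pass (0.67 per unit, SE 0.11, FDR 0.0419).

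The relations to the striatal score also rested in part on single rats. *Adcy5*, *Adcy7* and *Adcy8* passed in all 12 fits with a single rat removed. Without Control rat 10 the FDR reached 0.109 in *Adcy9* and 0.0739 in *Adcy6*, and 3 cyclases passed. Without Control rat 12 the FDR of *Adcy9* was 0.0575 and 4 cyclases passed. With all of the 3 rats left out, 0 of the 9 passed 5% FDR, as did only 64 of 21365 genes. Over these 9 rats the slope of *Adcy7* was -0.78 (SE 0.14, nominal *p* 0.000208, FDR 0.0599), that of *Adcy5* 0.63 (SE 0.14, nominal *p* 0.000914, FDR 0.122) and that of *Adcy8* -0.60 (SE 0.16, nominal *p* 0.00335, FDR 0.231), while those of *Adcy9* (0.23, nominal *p* 0.237) and *Adcy6* (-0.10, nominal *p* 0.343) were not below a nominal *p* of 0.05.

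**Figure D3:**
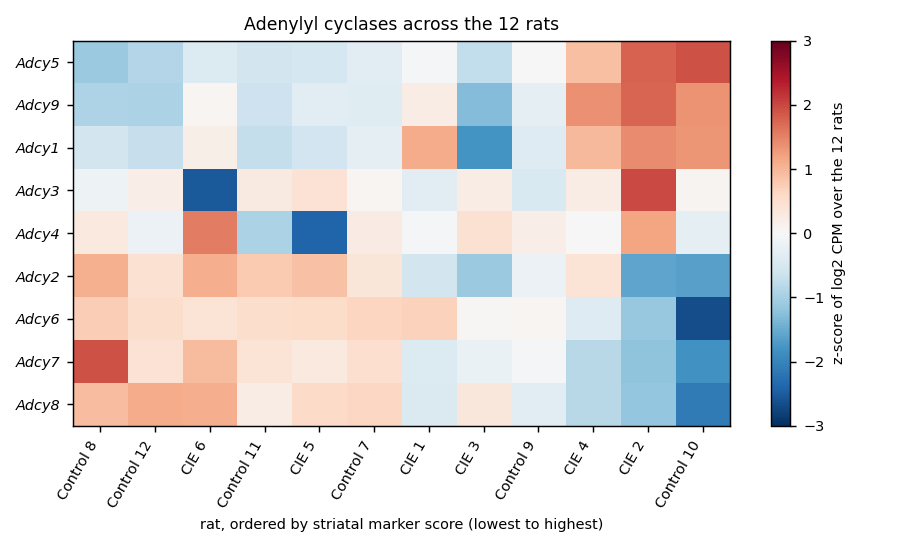
Expression of the 9 cyclases (rows) in the 12 rats (columns, ordered by the striatal marker score from lowest to highest), as z-scores of log2 CPM per gene. CIE rats 2 and 4 and Control rat 10 at the right are red for *Adcy5*, *Adcy9* and *Adcy1* and blue for *Adcy6*, *Adcy7* and *Adcy8*.

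The group comparison was repeated with both scores as covariates. The standard error of the *Adcy5* difference went from 0.41 to 0.09, and its log2 fold change from 0.17 to -0.15 (nominal *p* 0.0967, FDR 0.669). Those of *Adcy1* (-0.13, SE 0.15), *Adcy6* (0.12, SE 0.08), *Adcy7* (-0.03, SE 0.11), *Adcy8* (0.14, SE 0.10) and *Adcy9* (0.03, SE 0.12) also moved, while *Adcy4* kept a wide error (0.11, SE 0.26). In this fit 0 of the 9 cyclases had a nominal *p* value below 0.05, where 8.54% of all genes did. With the 3 rats left out, an alternative chosen after the values were seen, 0 of the 9 had a nominal *p* value below 0.05 (6.62% of all genes did), and the *Adcy5* difference was 0.09 (SE 0.15).

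**Figure D4:**
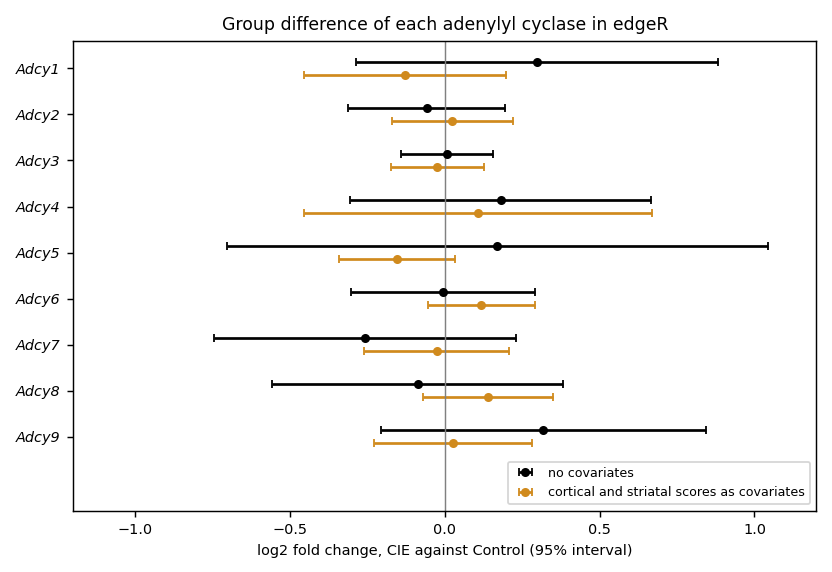
The log2 fold change of each cyclase between the CIE and Control groups with its 95% confidence interval, without covariates (black) and with both marker scores, cortical and striatal, in the fit (orange). All intervals include 0, and that of *Adcy5* narrows most.

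Leaving out Control rat 10 alone removed the only Control rat of the 3 and kept both CIE rats. In that fit 3 cyclases had a nominal *p* value below 0.05, all higher in the CIE group, where 11.4% of all genes did. They were *Adcy9* (log2 fold change 0.53, SE 0.21, nominal *p* 0.0243, FDR 0.363), *Adcy5* (0.68, SE 0.30, nominal *p* 0.0428, FDR 0.420) and *Adcy1* (0.52, SE 0.24, nominal *p* 0.0461, FDR 0.429). Without CIE rat 2 instead, the *Adcy5* log2 fold change was -0.17. The limma-voom fit, which gives each library a quality weight, called *Adcy9* (0.52, nominal *p* 0.0170, FDR 0.199) and *Adcy1* (0.53, nominal *p* 0.0212, FDR 0.215).

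The genes whose log2 CPM followed each cyclase most closely over the 12 rats were found among 16890 genes at a mean of 1 CPM or more, as a description. *Adcy5* was followed most closely by *Kctd1* (Pearson's r = 0.994), *Pde10a* (0.992), the striatal phosphodiesterase that breaks down cAMP and a member of the striatal marker list, and *Dgkb* (0.988). *Adcy9* was followed by *Dgki* (0.988), *Cacnb4* (0.985) and *Rnf44* (0.984), and *Adcy1* by *Rapgef5* (0.972), *Sort1* (0.969) and *Epn2* (0.964). *Adcy6* was followed by *MAST1* (0.990), *Cacna1g* (0.9746), a T-type calcium channel, and *Katnal1* (0.973). These values hold the contrast between the 3 rats and the rest, and over the other 9 rats r was 0.917 for *Adcy5* with *Pde10a*, 0.962 for *Adcy9* with *Dgki*, 0.959 for *Adcy1* with *Rapgef5* and 0.932 for *Adcy6* with *MAST1*.

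The nearest genes of *Adcy7* were *Fam149a* (0.959), *Ubap1l* (0.949) and *Slc6a11* (0.949), a GABA transporter. Those of *Adcy8* were *Vangl2* (0.959), *Zfp423* (0.958) and *Ppp1r26* (0.954), and those of *Adcy2* were *Plcxd2* (0.955), *Hcrtr2* (0.944), an orexin receptor, and *Klhl1* (0.942). *Adcy3* (*Gpn2* 0.917, *Trim23* 0.896, *Mt1-ps1* 0.895) and *Adcy4* (LOC103690892 0.887, *Zfp407* 0.876, *Tcf7l1* 0.859) had no gene as close. With the group means removed, the r of these 27 pairs lay between 0.876 and 0.994. Within the family, *Adcy5* and *Adcy9* were at r = 0.939 and *Adcy5* and *Adcy8* at -0.923 over the 12 rats, and at 0.784 and -0.726 over the other 9. *Adcy1* and *Adcy9* were at 0.928 and 0.896.

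Promoters are shown for the genes whose expression followed the striatal score. RefSeq's GRCr8 tables held the start region of 6 of the 9 cyclases, among them 3 of those 5. The 250 bases before the annotated start are printed on the gene's strand, with capitals for GGGCGG (the GC box) and TGACG (the half-site of the cAMP response element, CRE), searched on both strands. *Adcy5* and *Adcy9* rose and *Adcy7* fell with the score.
Adcy5 (chr11:79123344-79123593, minus strand): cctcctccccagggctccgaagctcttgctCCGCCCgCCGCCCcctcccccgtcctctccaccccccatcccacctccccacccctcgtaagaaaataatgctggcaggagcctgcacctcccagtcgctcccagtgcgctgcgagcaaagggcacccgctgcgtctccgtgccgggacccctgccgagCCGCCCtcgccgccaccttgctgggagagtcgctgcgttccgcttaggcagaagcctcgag
Adcy9 (chr10:11645595-11645844, plus strand): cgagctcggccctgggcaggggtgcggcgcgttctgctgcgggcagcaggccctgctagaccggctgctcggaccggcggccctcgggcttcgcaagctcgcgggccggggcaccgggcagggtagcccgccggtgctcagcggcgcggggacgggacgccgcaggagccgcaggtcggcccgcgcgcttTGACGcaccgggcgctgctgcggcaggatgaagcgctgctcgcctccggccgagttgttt
Adcy7 (chr19:34936545-34936794, minus strand): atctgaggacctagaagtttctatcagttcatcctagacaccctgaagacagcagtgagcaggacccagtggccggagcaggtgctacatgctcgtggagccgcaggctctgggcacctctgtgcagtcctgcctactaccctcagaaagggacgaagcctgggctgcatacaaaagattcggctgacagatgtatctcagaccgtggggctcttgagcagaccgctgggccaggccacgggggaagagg
The *Adcy5* window held 3 GC boxes and the *Adcy9* and *Adcy7* windows held 0, where 30.5% of all 33469 windows of this length held at least 1. A TGACG half-site was found in *Adcy9* (1 match) and in 18.2% of all windows. The full CRE, TGACGTCA, which contains the half-site on both strands, was in none of these 3 windows and in 1.59% of all. The G and C content was 70.0% in *Adcy5*, 76.8% in *Adcy9* and 58.4% in *Adcy7*, against a median of 51.2%. The windows not printed, of genes that did not pass for the score, held 7 GC boxes in *Adcy1*, 2 in *Adcy2* and 0 in *Adcy4*. Their G and C content was 88.0%, 69.6% and 58.0%. The *Adcy1* window appears to hold coding sequence, so its values are not those of promoter sequence alone. A relation of these matches to the score was not tested. A match is a string of letters, and no binding was measured.

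The other genes of the cAMP pathway were compared in the same fit. Of 66 genes in 6 lists, 63 were tested, and *Gnaz*, *Ric8b* and *Gpr52* were listed at 0 in every rat. A nominal *p* value below 0.05 was found in 5 of the 63 (7.94%, against 8.31% of all genes), 4 with higher and 1 with lower expression under CIE, and 0 passed 5% FDR. The median log2 fold change was 0.04, and 37 of the 63 genes were above 0. Without Control rat 10 the number was 13 (20.6%, against 11.4% of all genes) and without Control rat 11 it was 2 (3.17%, against 6.39%). Without CIE rats 2 and 4 and Control rat 10 it was 5 (7.94%, against 6.62%). With the cortical and striatal scores in the fit it was 11 (17.5%, against 8.54%). *Drd1*, *Adora2a* and *Gpr6* of these lists are also part of the striatal score, so in that fit they were in part adjusted for themselves.

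Upstream of the cyclases, the G protein list had 1 of 14 genes below a nominal *p* of 0.05 (7.14%, against 8.31% of all genes). It was lower in the CIE group. This was *Gnai3*, an inhibitory alpha subunit, at 35.3 ± 1.38 CPM against 39.2 ± 2.45 CPM in the Control group (SD, n = 6 each; log2 fold change -0.15, SE 0.06, nominal *p* 0.0187, FDR 0.462). The beta subunit gene *Gnb4* (-0.30, SE 0.15, nominal *p* 0.0585) and *Gnas*, which encodes the stimulatory alpha subunit Gs (-0.24, SE 0.15, nominal *p* 0.133), were not below 0.05. *Gnal* and *Gng7*, named after their values were seen, encode Golf and its gamma subunit, the usual partners of ADCY5 in the striatum. They had log2 fold changes of 0.02 (SE 0.25) and 0.12 (SE 0.61), and both rose with the striatal score as *Adcy5* did (0.63 per unit for *Gnal*, FDR 2.90e-06, and 1.27 per unit for *Gng7*, FDR 1.36e-05). Without CIE rats 2 and 4 and Control rat 10 neither passed 5% FDR (0.52 per unit for *Gnal*, nominal *p* 0.000582, FDR 0.0955, and 1.04 per unit for *Gng7*, nominal *p* 0.00182, FDR 0.169).

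Of 17 receptors that couple to Gs or Golf, 1 had a nominal *p* value below 0.05 (5.88%, against 8.31% of all genes). It was *Adora2b*, an adenosine receptor, with 8.17 ± 1.34 CPM in CIE rats against 6.65 ± 0.837 CPM in Control rats (SD, n = 6 each; log2 fold change 0.30, SE 0.12, nominal *p* 0.0299, FDR 0.534). *Adcyap1r1*, the receptor of the peptide PACAP, was at 392.3 ± 35.96 against 352 ± 43.9 CPM (log2 fold change 0.16, SE 0.09, nominal *p* 0.109), and *Vipr2* differed by -0.43 on the log2 scale (SE 0.33, nominal *p* 0.212). *Drd1*, *Adora2a* and *Gpr6* of this list are also striatal markers.

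Downstream, 0 of 11 genes for PKA subunits, Epac and PKA inhibitors had a nominal *p* value below 0.05, where 8.31% of all genes did. The smallest were those of the Epac genes *Rapgef4* (log2 fold change 0.21, SE 0.12, nominal *p* 0.0935) and *Rapgef3* (0.17, SE 0.10, nominal *p* 0.113) and of *Prkar1a*, a regulatory subunit of PKA (-0.11, SE 0.06, nominal *p* 0.105). Among 10 scaffolds that anchor PKA, 1 had a nominal *p* value below 0.05 (10%, against 8.31% of all genes). It was *Akap8* (0.16, SE 0.07, nominal *p* 0.0345, FDR 0.555), while *Akap11* (0.06) and *Akap12* (-0.14) were not below 0.05. Among 8 genes of the CREB family and its coactivators, 2 had a nominal *p* value below 0.05 (25%, against 8.31% of all genes). Both were higher in the CIE group, and neither passed 5% FDR. They were the coactivator genes *Crtc3* (0.26, SE 0.11, nominal *p* 0.0316, FDR 0.544) and *Crtc2* (0.21, SE 0.09, nominal *p* 0.0425, FDR 0.578), and *Creb1* itself differed by -0.09 on the log2 scale (SE 0.06, nominal *p* 0.123). The soluble cyclase *Adcy10* (-0.08, SE 0.35) and the cyclase-associated protein genes *Cap1* (0.04, SE 0.21) and *Cap2* (0.19, SE 0.19) had nominal *p* values above 0.05.

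**Figure D5:**
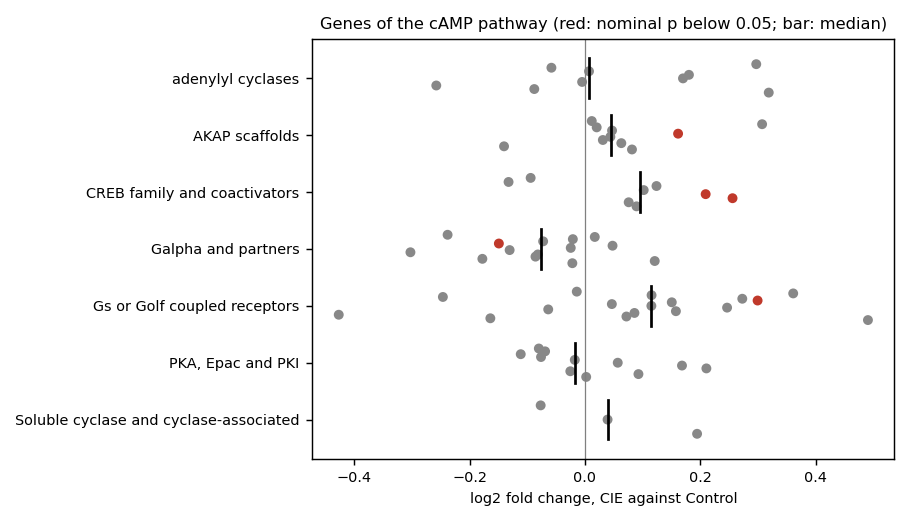
The log2 fold change between the CIE and Control groups of each tested gene (points) in the cyclase family and in 6 lists of the cAMP pathway, with the median of each list as a bar and genes with a nominal *p* value below 0.05 in red. The 9 cyclases lie between -0.26 and 0.32, with none in red.

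Total counts per rat were between 39082548 and 95647601. Markers of other cell types also moved with the groups. The scores were lower in the CIE group for myelinating oligodendrocytes (exact permutation *p* = 0.0346), endothelial cells (*p* = 0.00433), meningeal fibroblasts (*p* = 0.0130) and erythroid blood (*p* = 0.00216, the smallest that 6 rats against 6 allow in an exact permutation test). Of these lists, 9 of 10 oligodendrocyte, 6 of 8 endothelial, 3 of 5 fibroblast and 3 of 3 erythroid markers had a nominal *p* value below 0.05 in edgeR (8.31% of all genes did). The oligodendrocyte markers summed to between 5718 and 13866 CPM in CIE rats against 8759 to 16399 CPM in Control rats. The endothelial markers summed to between 187 and 243 CPM in CIE rats against 218 to 274 CPM in Control rats. Scores for CeA, general and GABA neurons, OPCs, astrocytes, microglia and choroid plexus had exact permutation *p* values between 0.167 and 0.968. Single markers of these lists could still differ, as in 3 of 8 astrocyte and 2 of 9 CeA markers with a nominal *p* value below 0.05, and the astrocyte markers went both ways (*Gjb6* 0.34, *Aqp4* -0.28). With the myelin score as a covariate, 0 of the 9 cyclases had a nominal *p* value below 0.05, where 10.8% of all genes did. The part of the endothelial, fibroblast and blood markers in the cyclase values was not tested.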

How the data were processed

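Poly-A RNA from CeA punches of 12 rats was sequenced, 1 library for each rat. For alignment to Rnor_6.0 the authors used BWA, and HTSeq gave the counts of each gene. The gene annotation, strand and overlap settings are not given in the sources used here, so reads shared with overlapping genes cannot be told apart. The deposited values are raw counts. Groups were taken from the treatment labels. Median chi-square values per gene between rats of a group were 3.70 to 15.9, so no library was a copy of another of its group.

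Counts were analysed with edgeR 4.0.16 in R 4.3.3 (TMM, filterByExpr, quasi-likelihood F test without covariates, Benjamini-Hochberg FDR over 20944 genes). The SE is the size of a log2 fold change over the root of its F value. DESeq2 1.42.0, limma 3.58.1 and other settings were alternatives. Exact permutation tests were two-sided on group means of log2 CPM with a prior count of 2, or of scores. On counts simulated for CIE against Control with 200 of 20944 genes changed by a log2 fold change of 1, edgeR recovered 133 and called 1 unchanged gene. The cyclases, lists and tests were chosen with earlier results of these data known. Named pathway genes are the 3 smallest *p* values of each list, and genes like a cyclase are the 3 with the highest r. Sequences came from RefSeq (GRCr8, not the build of the counts) and were matched by symbol. The names of some markers in the lists are not reported here.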

Additional observations from a re-analysis of the deposited data

Results flagged for a closer look

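Control rat 10 lay apart from the other 5 Control rats in 4 cyclases, where the gap to its nearest neighbor took up more than 0.625 of the range of the group. It was at 145 CPM in *Adcy1* (others 66.8 to 79.3 CPM), 599 CPM in *Adcy5* (others 126 to 223 CPM) and 123 CPM in *Adcy9* (others 56.9 to 71.8 CPM), and at 34.1 CPM in *Adcy6* (others 57.1 to 65.0 CPM). In all, 18 sets of 6 rats were examined in this way, and chance marks about 1 in 20. The 4 genes were measured in the same library, so these are not independent.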

How the results depend on the processing

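Of 189 log2 fold changes of the 9 cyclases under 21 alternatives, of which 1 was chosen after seeing the data, 165 kept their sign and none passed 5% FDR (smallest FDR 0.199). With the cortical and striatal scores the sign turned in *Adcy1* (-0.13), *Adcy2* (0.025), *Adcy3* (-0.024), *Adcy5* (-0.15), *Adcy6* (0.12) and *Adcy8* (0.14). With the myelin score it turned in *Adcy2* (0.032), *Adcy3* (-0.088) and *Adcy6* (0.00423). *Adcy6* also turned with DESeq2 size factors (0.00280), library size only (0.00867) and DESeq2 (0.00281), and *Adcy3* without the 3 rats with the highest striatal score (-0.045). With 1 rat left out, *Adcy3* ran from -0.038 to 0.058, *Adcy5* from -0.17 to 0.68, *Adcy6* from -0.11 to 0.052 and *Adcy8* from -0.22 to 0.00449. The cyclases below a nominal *p* of 0.05 numbered 0, 2 with limma-voom and 0 to 3 with a rat left out. Those that followed the striatal score numbered 5, 3 to 7 with a rat left out and 0 without the 3 rats. The 5 pathway genes (7.94%, all genes 8.31%) became 12 with limma-voom (19.0%, all genes 17.2%), 11 with the cortical and striatal scores (17.5%, all genes 8.54%) and 2 to 13 with a rat left out (3.17% to 20.6%). Over all genes, 76 passed 5% FDR, 265 with DESeq2, 234 with limma-voom, 50 with the cortical and striatal scores, 26 with the myelin score, 34 without the 3 rats, and 34 (without Control rat 9) to 154 (without CIE rat 6) with a rat left out. The 1740 genes at nominal *p* became 3596 with limma-voom and 1347 to 2811 with a rat left out. The causes were not tested. No paired analysis was possible because the groups share no rat numbers.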
